A study of Mus musculus with 16 samples.

Results

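Transcripts of 10 genes of the methionine cycle and of taurine synthesis (Mat1a, Mat2a, Gnmt, Pemt, Ahcy, Bhmt, Cbs, Cth, Cdo1 and Csad) were followed in primary mouse hepatocytes given SQ1 or pravastatin. The genes were chosen by name for their place in the pathway, with earlier results of these data known. Their counts beside the shares over all genes are therefore a description. Probes were found through the RefSeq accession that each spot carries. The set is 10 of the 20659 genes that could be named on the array, and all 10 were among the 15053 genes bright enough to be tested. Each array held RNA of treated cells in 1 dye and RNA of untreated control cells in the other, so that every array gave a treated-over-control ratio.

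SQ1 (squalestatin 1) inhibits squalene synthase, the first enzyme that commits isoprenoids to sterols. Its group had 8 arrays, and the labels give a dose of 100 µM; squalestatins are usually active at far lower doses, so the unit is uncertain. Pravastatin inhibits HMG-CoA reductase, which lies upstream of all isoprenoids, and its group had 8 arrays at 30 µM. In both groups the drug was added 48 h after plating and stayed on the cells for 48 h. Control cells were left without drug. All hepatocytes came from male C57Bl/J mice and were kept in Williams Medium E; ages and the number of animals are not given in the sources used here. The deposited names carry the same 8 control numbers for both drugs, so the SQ1 and pravastatin comparisons share their control samples. The arrays lay on 4 slides of 4 arrays each, each slide with 1 drug and both dye orientations. Slide 1 (SQ1) and slide 3 (pravastatin) held replicates 1, 2, 5 and 6, and slide 2 (SQ1) and slide 4 (pravastatin) held replicates 3, 4, 7 and 8. Slide 3 was scanned on another day than the other slides, so scan date did not vary among the SQ1 arrays. Between 23227 and 27430 probes per array were well above background in the treated channel, and between 23432 and 26824 in the control channel. All probes of the 10 genes were above background on every array, in both channels, and none was saturated.

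The methionine cycle turns methionine into S-adenosylmethionine, the methyl donor of most methylation reactions, and returns homocysteine to methionine. Liver is a main site of the body's methionine breakdown. There, surplus homocysteine leaves the cycle by transsulfuration to cysteine, and cysteine is oxidised and decarboxylated to taurine, which mouse liver uses to conjugate bile acids.

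Promoter windows of 4 of the genes are shown because their ratios span the range measured: Bhmt and Gnmt were lower with pravastatin by more than 1 log2 unit, while Ahcy and Mat2a changed least of the members called with pravastatin. Each window is the 150 bases before the gene's RefSeq start (GRCm38.p6), printed 5′ to 3′ along the gene, all on the minus strand. From the RefSeq table used here, windows were kept for 7 of the 10 genes. None was kept for Mat1a, Cth and Cdo1, which does not show that the table lacked them. Capitals mark matches on either strand to any of 6 short motifs: the CCAAT box (CCAAT), the TATA box (TATAAA), the E-box (CACGTG), the core site of many nuclear receptors (AGGTCA), the GC box (GGGCGG) and a sterol regulatory element (TCACNCCAC). Matches to the GC box may overlap each other.
Bhmt, chr13:93637759-93637908: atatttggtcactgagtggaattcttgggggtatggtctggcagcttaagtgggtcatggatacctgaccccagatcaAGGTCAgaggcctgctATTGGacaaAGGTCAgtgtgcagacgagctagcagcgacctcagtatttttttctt
Gnmt, chr17:46729166-46729315: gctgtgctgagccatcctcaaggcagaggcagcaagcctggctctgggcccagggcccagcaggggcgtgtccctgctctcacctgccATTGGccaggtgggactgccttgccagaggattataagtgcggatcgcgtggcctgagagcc
Ahcy, chr2:155074498-155074647: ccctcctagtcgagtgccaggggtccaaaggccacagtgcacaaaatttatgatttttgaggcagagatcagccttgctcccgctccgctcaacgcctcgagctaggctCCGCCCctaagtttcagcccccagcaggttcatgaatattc
Mat2a, chr6:72439557-72439706: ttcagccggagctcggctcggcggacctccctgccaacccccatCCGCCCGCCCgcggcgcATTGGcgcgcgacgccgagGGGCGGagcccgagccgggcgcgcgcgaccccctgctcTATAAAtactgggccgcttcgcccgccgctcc
The Bhmt window held 2 matches to AGGTCA and 1 to CCAAT. Of the 32851 windows of this length in the table, 8.58% held AGGTCA and 24.5% held CCAAT. Gnmt had 1 CCAAT match, and Ahcy had 1 match to GGGCGG, which 28.6% of windows held. Mat2a had 3 GGGCGG matches, of which 2 overlap, with 1 CCAAT and 1 TATAAA (held by 7.57% of windows). Mat2a was also the window richest in GC of the 4 shown, at 76.7% GC with 25 CpG, beside medians of 54% and 4 CpG over all windows. The E-box was in 4.3% of all windows and the sterol regulatory element in 0.639%, and neither was in any of the 4 shown. These matches are letters in a window, not measured binding.

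With SQ1, 3 of the 10 genes were higher (Mat2a, Ahcy and Cdo1), 5 were lower (Mat1a, Gnmt, Pemt, Cbs and Cth), and Bhmt and Csad did not pass the test. The largest fall was that of Mat1a, 2.38-fold, and no gene rose by more than 1.34-fold. With pravastatin, 9 of the 10 genes were lower, by 1.21-fold to 15.8-fold, none was higher, and Cth did not pass. Ratios were fitted with limma over all 16 arrays, with p-values adjusted by Benjamini-Hochberg over the 15053 genes and a threshold of 0.05; errors after ± are standard errors of that fit unless an SD is named. Ratios of single arrays, their ranges and counts of arrays above or below 0 are given with the fitted dye effect removed. By the same test, 32.3% of all genes were called with SQ1 (15.7% higher, 16.5% lower) and 66.7% with pravastatin (30.9% higher, 35.8% lower). The median log2 ratio of the 10 genes was -0.20 with SQ1, beside -0.00 over all genes, and -1.67 with pravastatin, beside -0.01 over all genes. Among all genes tested, 0.259% were lower by at least 1 log2 unit with SQ1 and 4.01% with pravastatin. Where arrays were centred on their median instead of normalized by loess, the share of higher calls among all calls was 71.1%, beside 48.7%, with SQ1 and 61.0%, beside 46.3%, with pravastatin. The labels call the cultures biological replicates, and p-values measure the spread between arrays. Some arrays of the same slide with opposite dyes were close. With SQ1, Bhmt ratios were -1.14 and -1.17 in replicates 1 and 5, and 0.28 and 0.27 in 2 and 6. They were 0.79 and 0.78 in 4 and 8, but 0.34 and -0.16 in 3 and 7. Whether such arrays are independent was not tested. If they are not, the standard errors and adjusted p-values are too small.

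**Figure D1:**
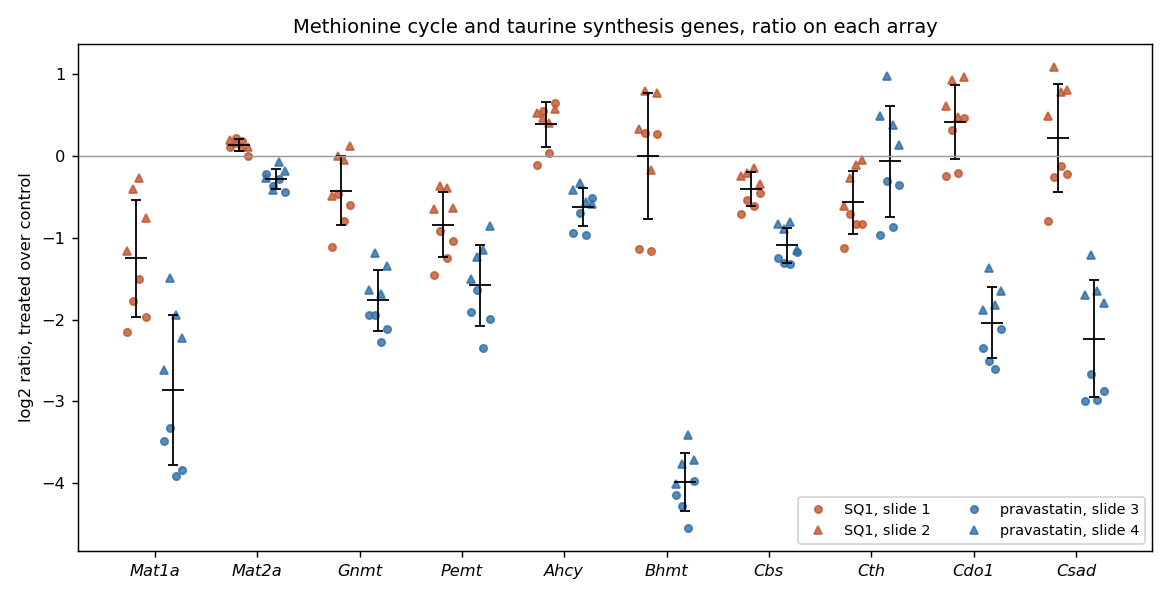
Log2 ratio of treated over control (vertical axis, dye effect removed) on each of the 16 arrays for the 10 genes, SQ1 in orange and pravastatin in blue, with circles for slides 1 and 3 and triangles for slides 2 and 4; bars give the mean and SD over 8 arrays. Bhmt has SQ1 ratios on both sides of 0 and pravastatin ratios from -4.55 to -3.41, and the circles of Mat1a, Csad and Cth lie below their triangles.

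S-adenosylmethionine is made from methionine by Mat1a in adult hepatocytes and by Mat2a in most other tissues and in dividing hepatocytes. The log2 ratio of Mat1a ran from -2.15 through a median of -1.34 to -0.27 on the SQ1 arrays, and from -3.92 through -2.98 to -1.50 on the pravastatin arrays. All 16 ratios were below 0, and the ranges of the drugs overlapped. The fitted ratio was -1.25 ± 0.27 with SQ1 (limma adjusted p = 0.00208, n = 8), a 2.38-fold fall, and -2.86 ± 0.27 with pravastatin (adjusted p = 9.07e-08, n = 8), a 7.26-fold fall. Only 0.0797% of all genes tested had a lower ratio than Mat1a with SQ1, and 0.299% with pravastatin. Normalized levels of Mat1a (log2 intensity, dye effect left in) had a median of 11.38 in SQ1-treated RNA against 13.04 in the control RNA of the same arrays. In pravastatin-treated RNA the median was 9.76, against 12.99 in the control RNA. Pravastatin levels, at 8.97 to 10.09, did not reach the lowest control level of 10.64, whereas SQ1 and control levels overlapped.

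Mat2a moved far less and in opposite directions. Its ratio was 0.01, 0.14 and 0.23 (lowest, median and highest) with SQ1, and -0.44, -0.27 and -0.08 with pravastatin. With the dye effect removed, all 8 SQ1 ratios lay above 0 and all 8 pravastatin ratios below 0; with it left in, 5 of 8 SQ1 ratios lay above 0 and 6 of 8 pravastatin ratios below 0. The fit gave 0.14 ± 0.04 with SQ1 (limma adjusted p = 0.00854) and -0.28 ± 0.04 with pravastatin (adjusted p = 4.69e-06), 1.21-fold lower. With each array centred on its median, neither call was kept: Mat2a was at 0.27 with SQ1 (adjusted p = 0.0534) and -0.10 with pravastatin (adjusted p = 0.367). The SQ1 call was also lost with slide (adjusted p = 0.101) or scan date (0.11, adjusted p = 0.221) as a random block, and on slides 1 and 3 alone (adjusted p = 0.0597) or slides 2 and 4 alone (adjusted p = 0.0646). A second Mat2a probe gave 0.15 with SQ1 (limma adjusted p = 0.143 in a fit of 25826 probes) and -0.24 with pravastatin (adjusted p = 0.00767).

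Among the enzymes that use S-adenosylmethionine, Gnmt methylates glycine and so drains surplus methyl groups, and Pemt makes phosphatidylcholine from phosphatidylethanolamine. Both were lower with both drugs. The Gnmt ratio had a lowest value of -1.11, a median of -0.47 and a highest value of 0.12 with SQ1, and values of -2.27, -1.82 and -1.19 with pravastatin. On 6 of 8 SQ1 arrays and on all 8 pravastatin arrays Gnmt was below 0, and the ranges of the drugs did not overlap. The fit gave -0.42 ± 0.13 with SQ1 (limma adjusted p = 0.0226), a 1.34-fold fall, and -1.77 ± 0.13 with pravastatin (adjusted p = 6.03e-09), a 3.40-fold fall. The SQ1 call for Gnmt was lost when replicate 1, 5 or 6 was left out (log2 ratio -0.32, -0.36 and -0.39; adjusted p = 0.0749, 0.0689 and 0.0586). It was also lost with median centring (adjusted p = 0.25) and with slide (adjusted p = 0.0809) or scan date (adjusted p = 0.0565) as a random block.

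Pemt had ratios of -1.46, -0.78 and -0.37 (lowest, median and highest) with SQ1, and of -2.35, -1.57 and -0.85 with pravastatin. It was below 0 on all 16 arrays, with overlapping ranges. The fitted values were -0.84 ± 0.15 with SQ1 (limma adjusted p = 0.00042), a 1.79-fold fall, and -1.58 ± 0.15 with pravastatin (adjusted p = 8.47e-08), a 2.99-fold fall. The other 2 Pemt probes gave -0.80 each with SQ1, and -1.58 and -1.55 with pravastatin, close to the main probe.

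Ahcy splits S-adenosylhomocysteine, the product of every such methylation, into homocysteine and adenosine. Its ratio ran from -0.11 through a median of 0.50 to 0.66 with SQ1, and from -0.97 through -0.57 to -0.33 with pravastatin. It was above 0 on 7 of 8 SQ1 arrays and below 0 on all 8 pravastatin arrays, with no overlap between the drugs. Ahcy was thus 1.31-fold higher with SQ1 (0.39 ± 0.09, limma adjusted p = 0.00219) and 1.54-fold lower with pravastatin (-0.63 ± 0.09, adjusted p = 6.07e-06). The SQ1 call for Ahcy was lost with scan date as a random block (0.31, adjusted p = 0.133) and on slides 1 and 3 alone (0.29, adjusted p = 0.129). Its other probe gave 0.29 with SQ1 (adjusted p = 0.00478) and -0.56 with pravastatin.

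Bhmt returns homocysteine to methionine with betaine as the methyl donor and is abundant in liver. Its ratio spread from -1.17 through a median of 0.28 to 0.79 with SQ1, and from -4.55 through -4.00 to -3.41 with pravastatin. SQ1 arrays lay on both sides of 0 (5 above and 3 below), and no pravastatin array came near them. The fitted SQ1 ratio was -0.00 ± 0.20 (limma adjusted p = 0.998), with a 95% interval from -0.42 to 0.42, so a change within those bounds was not detectable. With pravastatin Bhmt was 15.8-fold lower (-3.98 ± 0.20, adjusted p = 4.76e-11), and 0.0465% of all genes had a lower ratio. Its 3 probes gave -0.00, -0.06 and -0.07 with SQ1, and -3.98, -3.53 and -2.94 with pravastatin; the size of the fall thus varied by more than 1 log2 unit between probes of the same gene. The normalized log2 level of Bhmt was 12.57 to 14.52 in pravastatin-treated RNA against 16.52 to 18.44 in the control RNA of those arrays. The control RNA of the same number differed between its SQ1 and pravastatin arrays by up to 1.28 log2 units for Bhmt (replicate 4), more than for any other of the 10 genes.

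In transsulfuration, Cbs joins homocysteine with serine to cystathionine, and Cth cleaves cystathionine to cysteine. Cbs had ratios of -0.71, -0.39 and -0.14 (lowest, median and highest) with SQ1, and of -1.32, -1.16 and -0.80 with pravastatin. All 16 lay below 0, and every pravastatin ratio was below every SQ1 ratio. Cbs fell 1.32-fold with SQ1 (-0.40 ± 0.07, limma adjusted p = 0.000392) and 2.13-fold with pravastatin (-1.09 ± 0.07, adjusted p = 1.12e-09). Its SQ1 call was lost with median centring (-0.28, adjusted p = 0.139).

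Cth was the exception among the 10 genes. Its ratio was -1.12, -0.66 and -0.05 (lowest, median and highest) with SQ1, and -0.97, -0.09 and 0.98 with pravastatin. SQ1 arrays were all below 0 (6 of 8 with the dye effect left in), and pravastatin arrays were split, 4 above and 4 below. The fit gave -0.57 ± 0.18 with SQ1 (limma adjusted p = 0.0252), a 1.48-fold fall, and -0.06 ± 0.18 with pravastatin (adjusted p = 0.773). The SQ1 call was lost when replicate 1, 2, 3, 5 or 6 was left out, with log2 ratios of -0.48, -0.54, -0.56, -0.52 and -0.53 and adjusted p values of 0.0736, 0.0553, 0.0501, 0.0632 and 0.0644. It was lost too with median centring (adjusted p = 0.208) and with slide as a random block (adjusted p = 0.075). A second Cth probe gave -0.47 with SQ1 (adjusted p = 0.0407) and -0.08 with pravastatin.

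Taurine synthesis proper starts with Cdo1, which oxidises cysteine to cysteine sulfinate, and goes on with Csad, which decarboxylates it to hypotaurine. Cdo1 had ratios of -0.24, 0.47 and 0.97 (lowest, median and highest) with SQ1, and of -2.61, -2.00 and -1.37 with pravastatin. It was above 0 on 6 of 8 SQ1 arrays and below 0 on all pravastatin arrays. The fit gave 0.42 ± 0.15 with SQ1 (limma adjusted p = 0.0385), 1.34-fold higher, and -2.04 ± 0.15 with pravastatin (adjusted p = 3.60e-09), 4.11-fold lower. The SQ1 call was lost when replicate 2, 3, 4, 6, 7 or 8 was left out, at log2 ratios of 0.43, 0.39, 0.34, 0.41, 0.41 and 0.33 and adjusted p values of 0.0585, 0.086, 0.109, 0.0747, 0.0727 and 0.113. With slide as a random block its adjusted p was 0.12, and with scan date as a random block the ratio was 0.23 with an adjusted p of 0.547.

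Csad ratios ran from -0.80 through a median of 0.18 to 1.09 with SQ1, and from -3.00 through -2.23 to -1.21 with pravastatin. With SQ1, 4 arrays were above 0 and 4 below, and the fitted ratio was 0.22 ± 0.23 (limma adjusted p = 0.489, 95% interval -0.26 to 0.71). Without 1 SQ1 array at a time the ratio of Csad ran from 0.09 (without replicate 4) to 0.38 (without replicate 1), and with scan date as a random block it was -0.12 (adjusted p = 0.853); it was called under none of these. With pravastatin Csad was 4.71-fold lower (-2.24 ± 0.23, adjusted p = 2.07e-07). The normalized log2 level of Csad was 11.45 to 12.16 in pravastatin-treated RNA against 13.23 to 14.77 in the control RNA, without overlap.

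Over the whole set, 4 genes were below 0 on all 8 SQ1 arrays (Mat1a, Pemt, Cbs and Cth), as 11.8% of all genes were, and 9 were below 0 on all 8 pravastatin arrays, as 26.3% of all genes were. Treated and control levels did not overlap for 7 of the 10 genes with pravastatin (20.3% of all genes) and for none with SQ1 (3.03% of all genes).

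Set side by side at doses that differ, the ratios were higher with SQ1 than with pravastatin for 9 of the 10 genes, where the difference was called for 53.1% of all genes (29.3% higher and 23.8% lower with SQ1); for none of the 10 was it called lower. The difference of the log2 ratios, SQ1 minus pravastatin, was largest for Bhmt (3.98 ± 0.28, limma adjusted p = 1.34e-08), followed by Csad (2.46 ± 0.32, adjusted p = 8.74e-06) and Cdo1 (2.46 ± 0.21, adjusted p = 8.27e-08). It was 1.61 ± 0.38 for Mat1a (adjusted p = 0.00208) and 1.34 ± 0.19 for Gnmt (adjusted p = 1.76e-05). For the other called genes it was 1.02 ± 0.12 for Ahcy, 0.74 ± 0.21 for Pemt, 0.68 ± 0.10 for Cbs and 0.42 ± 0.05 for Mat2a (limma adjusted p = 3.15e-06, 0.00708, 2.91e-05 and 5.75e-06). For each of these 9 genes the ratio was higher with SQ1 in 8 of 8 replicate numbers. The share of all genes with such a count was not worked out. Ratios with the drugs did not overlap for 7 of the 10 genes, the exceptions being Mat1a, Pemt and Cth, and for 20.7% of all genes. The main fit of the SQ1 minus pravastatin differences had no term for the replicate number. Its errors and p-values thus take no account of the control samples that same-numbered arrays share. For Cth the difference was -0.50 ± 0.26 (limma adjusted p = 0.113, 95% interval -1.05 to 0.04), with a lower ratio with SQ1 in 7 of 8 replicate numbers. With the replicate number as a random block the adjusted p for Cth was 0.0178, and with it as a fixed block 0.00362. The difference for Cth was also called without pravastatin replicate 1 (-0.64, adjusted p = 0.0366) or 5 (-0.63, adjusted p = 0.0469).

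The ratios differed between the slides of a drug. For 7 of the 10 genes (Mat1a, Gnmt, Pemt, Cbs, Cth, Cdo1 and Csad) the ratio was called lower on slide 1 than on slide 2. Of all genes, 12.3% differed by this test (3.97% higher and 8.3% lower on slide 1). The same 7 genes were called lower on slide 3 than on slide 4, beside 21.8% of all genes that differed (6.7% higher and 15.1% lower on slide 3). These comparisons share control samples. The Mat1a ratio was -1.85 on slide 1, against -0.65 on slide 2 (limma adjusted p of the difference = 0.00521). It was -3.65 on slide 3, against -2.07 on slide 4 (adjusted p = 0.000362). Its fall was therefore present on every slide but differed in size.

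Csad with SQ1 and Cth with pravastatin had slide means on both sides of 0. For Csad, slide 1 gave -0.34 against 0.79 on slide 2 (limma adjusted p = 0.00105), and slide 3 gave -2.88 against -1.59 on slide 4 (adjusted p = 0.000125). The Cth ratio was -0.87 on slide 1, against -0.26 on slide 2 (adjusted p = 0.0426); with pravastatin it was -0.62 on slide 3, against 0.50 on slide 4 (adjusted p = 0.000747). For Cth with pravastatin, the pooled ratio near 0 was thus the mean of a lower and a higher slide. For Cdo1, slide 1 gave 0.09 against 0.75 on slide 2 (adjusted p = 0.0215), and slide 3 gave -2.39 against -1.68 on slide 4 (adjusted p = 0.00824).

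The remaining slide differences left the sign as it was. For Gnmt, slide 1 gave -0.74 against -0.10 on slide 2 (limma adjusted p = 0.0165), and slide 3 gave -2.07 against -1.46 on slide 4 (adjusted p = 0.0115). For Pemt, slide 1 gave -1.17 against -0.51 on slide 2 (adjusted p = 0.0156), and slide 3 gave -1.97 against -1.18 on slide 4 (adjusted p = 0.00251). For Cbs, slide 1 gave -0.58 against -0.23 on slide 2 (adjusted p = 0.0101), and slide 3 gave -1.26 against -0.92 on slide 4 (adjusted p = 0.00494). Bhmt, Ahcy and Mat2a did not pass this test with either drug; Bhmt nevertheless had a mean of -0.44 on slide 1 and 0.44 on slide 2 (adjusted p = 0.0841), and Ahcy of 0.29 on slide 1 and 0.50 on slide 2 (adjusted p = 0.387).

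**Figure D2:**
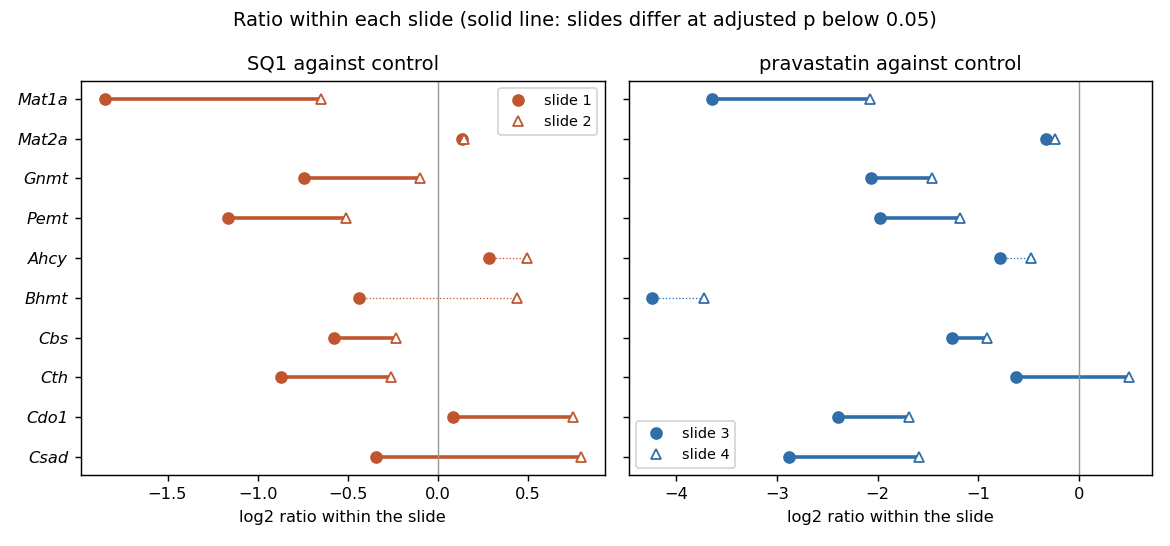
Mean log2 ratio of treated over control within each slide (horizontal axis) for the 10 genes, SQ1 on the left and pravastatin on the right; circles are slides 1 and 3, triangles slides 2 and 4, and a solid line marks a difference with an adjusted p below 0.05. All 10 genes have the circle left of the triangle in both panels, with solid lines for 7 genes in each.

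Slides also differed in the level of the control RNA. Averaged over its arrays with either drug, every control of replicates 1, 2, 5 and 6 lay above every control of replicates 3, 4, 7 and 8 for 8 of the 10 genes (all but Mat2a and Bhmt), as was so for 15.8% of all genes. Mat1a varied most, with control levels of 13.36 to 13.91 for replicates 1, 2, 5 and 6 and of 10.73 to 12.67 for replicates 3, 4, 7 and 8, a range of 3.18 log2 units or 9.07-fold over the 8 controls. Measured on its SQ1 and on its pravastatin array, the same control number gave Mat1a levels within 0.23 log2 units. Pemt controls ranged over 3.70-fold and Gnmt controls over 3.49-fold, with gaps of at most 0.16 and 0.11 log2 units within a number. Control levels of Mat2a, in contrast, ranged over 1.33-fold. The treated RNA varied less than the controls for Mat1a, over 1.66 log2 units with SQ1 and 1.13 with pravastatin. Control hepatocyte markers averaged 16.15 log2 units in replicates 1, 2, 5 and 6 and 15.66 in replicates 3, 4, 7 and 8. Kupffer cell markers averaged 10.53 and 9.87 in these sets. Stellate cell markers went the other way, at 11.57 and 11.77, as did cholangiocyte markers, at 9.34 and 9.51. Sinusoidal endothelial markers were close, at 10.10 and 10.14. The part of these markers in the slide differences was not tested. Slide and set of control cultures cannot be told apart.

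**Figure D3:**
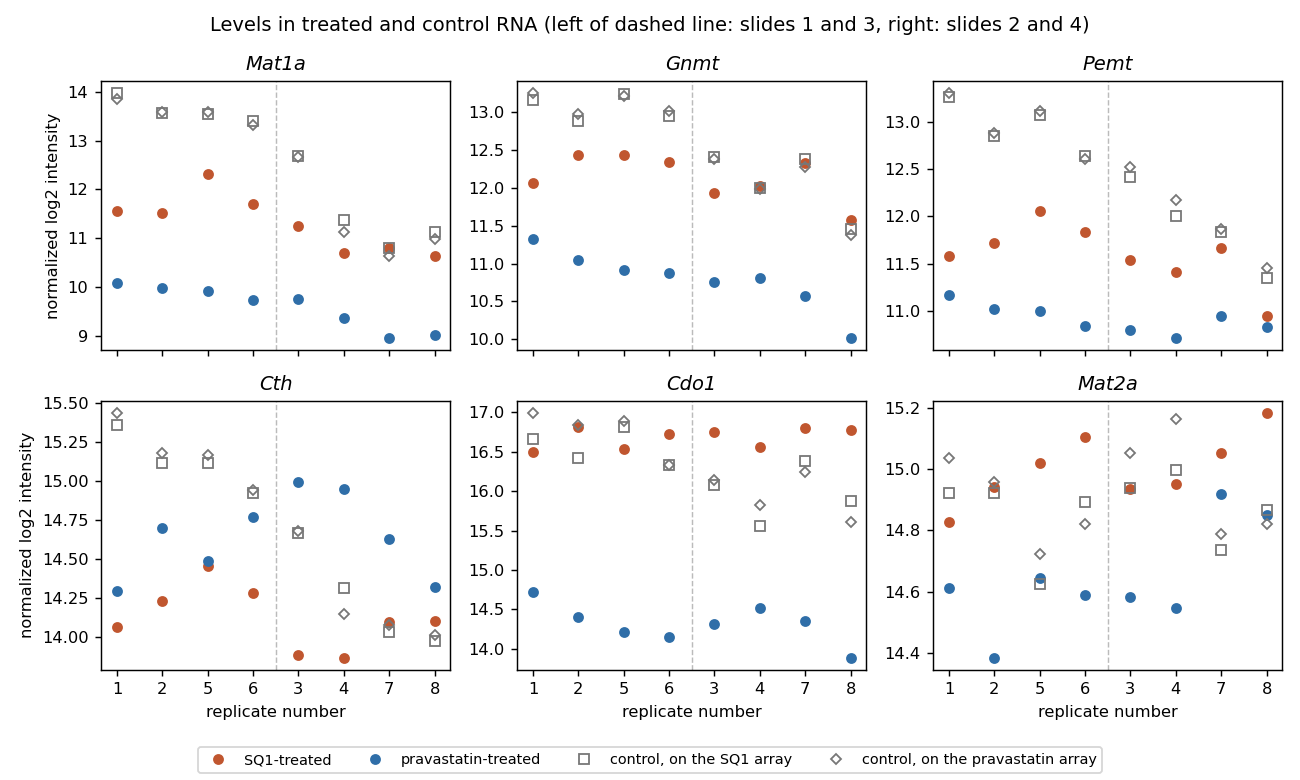
Normalized log2 intensity (vertical axis, dye effect left in) of 6 of the genes in SQ1-treated RNA (orange), pravastatin-treated RNA (blue) and control RNA (open squares on the SQ1 array, open diamonds on the pravastatin array) for each replicate number. Control levels of Mat1a, Gnmt, Pemt and Cth are all higher left of the dashed line (slides 1 and 3) than right of it. Those of Cdo1 are mostly higher on the left but overlap, with 16.39 for replicate 7 and 16.33 for replicate 6 on the SQ1 arrays. Control levels of Mat2a are mixed.

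Neighbouring pathways were counted in the same fit. Of 20 tested folate enzymes, 2 were higher and 7 lower with SQ1 (median log2 ratio -0.12), and 5 were higher and 13 lower with pravastatin (median -0.50). Those with the largest calls with SQ1 were Ftcd, of histidine breakdown (0.25 ± 0.05, limma adjusted p = 0.00134), mitochondrial Mthfd2l (0.16), mitochondrial Aldh1l2 (-0.52 ± 0.12, adjusted p = 0.00321) and Sardh, which oxidises the sarcosine that Gnmt makes (-0.44 ± 0.12, adjusted p = 0.00811). With pravastatin, the mitochondrial enzymes Mthfd1l (0.81 ± 0.03, adjusted p = 5.86e-12) and Aldh1l2 (0.66 ± 0.12, adjusted p = 0.000133) rose. Dmgdh, which oxidises the dimethylglycine that Bhmt makes, fell (-2.27 ± 0.13, adjusted p = 3.60e-10), as did cytosolic Shmt1 (-1.39 ± 0.06, adjusted p = 2.04e-11).

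Choline and betaine metabolism had 12 tested genes. With SQ1, 1 was higher and 2 were lower (median -0.04): Pcyt2 of phosphatidylethanolamine synthesis (0.28, limma adjusted p = 0.0467), and Chdh (-0.29, adjusted p = 0.0472) and Aldh7a1 (-0.14, adjusted p = 0.0142), which oxidise choline and betaine aldehyde. Under other processing the SQ1 calls of Pcyt2 and Chdh were lost, for instance with slide as a random block (adjusted p = 0.128 and 0.138). With pravastatin none was higher and 11 were lower (median -0.55). Bhmt2, a homocysteine methyltransferase that uses S-methylmethionine, was at -2.83 ± 0.14 (7.09-fold lower, adjusted p = 5.58e-11), and Chdh, the first step from choline to betaine, at -2.73 ± 0.11 (6.65-fold lower, adjusted p = 3.35e-12).

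Of 14 tested genes that use S-adenosylmethionine or handle S-adenosylhomocysteine, 2 were higher and 3 lower with SQ1 (median -0.08), and 2 higher and 7 lower with pravastatin (median -0.38). Named by size with SQ1, Tpmt (thiopurine methylation) was at 0.33 ± 0.03 (limma adjusted p = 3.91e-06), Ahcyl1 (an Ahcy relative) at 0.16, Nnmt (nicotinamide methylation) at -0.29 ± 0.03 (adjusted p = 9.13e-06) and Icmt (methylation of prenylated cysteine) at -0.18 ± 0.03 (adjusted p = 0.0004). With pravastatin, Nnmt was at 0.24 ± 0.03 (adjusted p = 8.16e-06) and Prmt1 (arginine methylation) at 0.13 ± 0.05 (adjusted p = 0.0376), while Hnmt (histamine methylation) was at -2.16 ± 0.18 (adjusted p = 2.29e-08) and Adk, the kinase that removes adenosine, at -1.76 ± 0.13 (adjusted p = 6.11e-09). Tpmt was 1.59-fold lower with pravastatin.

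Methionine salvage and polyamine synthesis, with 9 tested genes, was the list with more higher than lower calls with pravastatin, 5 against 3 (median 0.14). Sms (spermine synthase, 0.43 ± 0.06, limma adjusted p = 1.47e-05) and Mtap (0.31 ± 0.05, adjusted p = 1.25e-05) rose, and the salvage enzymes Adi1 (-0.61 ± 0.06, adjusted p = 2.26e-07) and Apip (-0.46 ± 0.04, adjusted p = 2.18e-08) fell. With SQ1, none was higher and 2 were lower, Sms (-0.18, adjusted p = 0.0377) and Sat1, which acetylates polyamines (-0.13, adjusted p = 0.043; 0.01 with median centring).

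Of 17 tested genes of cysteine, taurine and glutathione metabolism, 4 were higher and 4 lower with SQ1 (median -0.06), and 4 higher and 11 lower with pravastatin (median -0.21). Gclc, the catalytic subunit of the rate-limiting enzyme of glutathione synthesis, rose with both drugs, at 0.55 ± 0.08 with SQ1 (limma adjusted p = 9.29e-05) and 1.40 ± 0.08 with pravastatin (adjusted p = 3.02e-10). Papss2, which makes activated sulfate, was at 0.49 ± 0.07 with SQ1 (adjusted p = 8.40e-05). Chac1, which degrades glutathione, was at -0.51 ± 0.15 with SQ1 (adjusted p = 0.0192) and 0.50 ± 0.15 with pravastatin (adjusted p = 0.00888). Suox, sulfite oxidase, was at -0.24 ± 0.07 with SQ1 (adjusted p = 0.012). Both enzymes that act after Csad fell with pravastatin: Fmo1, which oxidises hypotaurine to taurine, by 6.70-fold (-2.75 ± 0.18, adjusted p = 1.33e-09), and Baat, which joins taurine to bile acids, by 12.6-fold (-3.66 ± 0.15, adjusted p = 7.71e-12). With SQ1 these stood at 0.20 ± 0.18 and -0.34 ± 0.15 (adjusted p = 0.429 and 0.106).

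Scaling bore on many of the small SQ1 calls in these lists. With each array centred on its median, the SQ1 calls of Aldh1l2, Sardh, Pcyt2, Chdh, Aldh7a1, Nnmt, Icmt, Sms, Sat1, Chac1 and Suox were lost, and those of Ftcd, Mthfd2l, Tpmt, Ahcyl1, Gclc and Papss2 were kept. Of these 6, slide as a random block ended the calls of Mthfd2l (limma adjusted p = 0.0662) and Ahcyl1 (adjusted p = 0.059), and scan date as a random block those of Mthfd2l (adjusted p = 0.144) and Ftcd (adjusted p = 0.0867). The pravastatin call of Prmt1 was lost with slide as a random block (limma adjusted p = 0.108), and that of Chac1 on slides 1 and 3 alone (0.04, adjusted p = 0.765).

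**Figure D4:**
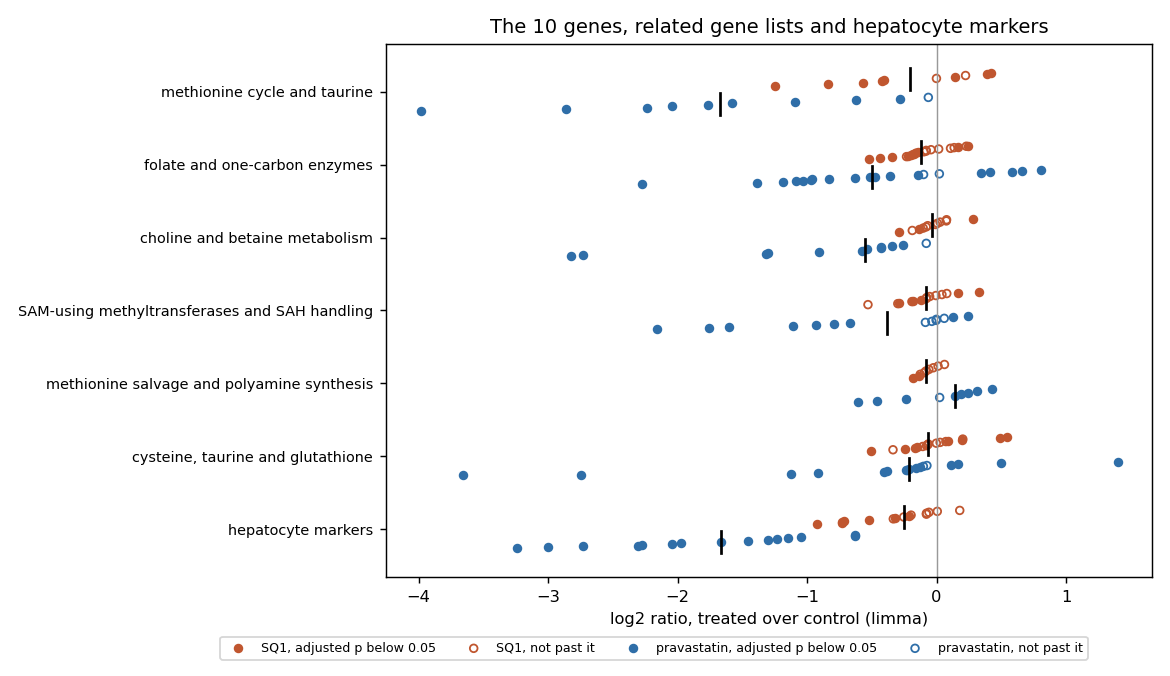
Fitted log2 ratio of treated over control (horizontal axis) for the 10 genes, the 5 related lists and 15 hepatocyte markers, SQ1 in orange above pravastatin in blue within each list; filled points have an adjusted p below 0.05 and black bars are list medians. The median with pravastatin is -1.67 for the 10 genes and -1.66 for the hepatocyte markers, and it is positive only for methionine salvage and polyamine synthesis (0.14).

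Markers of hepatocytes and of other liver cells were counted in the same fit. All 15 hepatocyte markers, such as albumin and other plasma proteins, were bright enough to be tested, and all were lower with pravastatin (median -1.66). With SQ1, 7 of 15 were lower, none was higher and 8 did not pass (median -0.25). Their summed level (log2) ranged from 20.42 to 21.01 in SQ1-treated RNA, from 19.41 to 20.41 in pravastatin-treated RNA and from 20.68 to 21.44 in control RNA. Of the markers of other liver cells, 11 Kupffer cell and leukocyte genes had 1 higher and 5 lower calls with SQ1, and 0 and 8 with pravastatin (median -0.62; Cd68 had no named probe). Their summed level was 13.65 to 14.59 with SQ1, 13.27 to 14.37 with pravastatin and 13.79 to 14.75 in controls. The 12 stellate cell and fibroblast markers had 2 higher and 2 lower calls with SQ1, and 2 and 3 with pravastatin, at summed levels of 17.19 to 17.60 with SQ1, 17.65 to 17.92 with pravastatin and 17.05 to 18.01 in controls. The 10 sinusoidal endothelial markers had 5 higher and no lower calls with SQ1, and 4 and 4 with pravastatin, at 14.04 to 14.29, 13.72 to 14.22 and 13.87 to 14.27 in SQ1, pravastatin and control RNA. The 8 cholangiocyte markers had 0 higher and 3 lower calls with SQ1, and 1 and 4 with pravastatin, at 16.79 to 17.82, 17.66 to 18.01 and 17.15 to 18.45. The part of any of these in the changes of the 10 genes was not tested. In such bulk RNA, fewer cells of a type and less RNA per cell cannot be told apart.

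The genes most like Bhmt, Mat1a and Csad, whose falls with pravastatin were the largest of the 10, were picked by the smallest root mean square difference of the log2 ratio over the 16 arrays. For Bhmt these were Arg1 (0.433) and Cyp3a41b (0.516), with ratios of -0.22 and 0.23 with SQ1 and of -3.79 and -3.97 with pravastatin. For Mat1a they were Cyp2c23 (0.382) and Ugt2b1 (0.403), at -1.08 and -1.12 with SQ1 and -2.92 and -3.30 with pravastatin. For Csad they were Abcg5 (0.253) and Bbox1 (0.312), at 0.26 and -0.13 with SQ1 and -2.05 and -2.40 with pravastatin. These genes were chosen for their likeness, so their ratios are a description.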

How the data were processed

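Total RNA (500 ng per amplification) was labelled with Alexa 647 or Alexa 555 and hybridised to 16 Agilent arrays. Treated RNA was in Alexa 647 for replicates 1 to 4 and in Alexa 555 for replicates 5 to 8 of each drug. Per the file headers, the deposited scanner files give median spot and background intensity per channel, along with processed signals and a log10 ratio from Agilent Feature Extraction 11.0.1.1. A deposited table of the series adds log2 ratios per probe and array, whose correlation with the Agilent ratios of treated over control was 0.742 to 0.999. How the authors processed that table is not given in the sources used here.

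Here, limma 3.58.1 in R 4.3.3 corrected the background (normexp, offset 50), normalized each array by loess and averaged the spots of a probe. The 44397 spots held 39429 probes, of which 27234 were named through RefSeq accessions and 12195 were not. A probe was tested if well above background on at least 4 treated arrays of a drug or in at least 8 control channels, with at least 7 ratios per drug. The brightest probe stood for a gene. The fit had a coefficient per drug and a dye effect (13 residual degrees of freedom). The method was tested on simulated data. The number of arrays limits the precision.

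Same-numbered SQ1 and pravastatin arrays deviated together (correlations 0.221 to 0.718 over 8 numbers), and the numbers were taken to pair samples. Such arrays share a control sample, and this alone can make their ratios deviate together. The correlations therefore cannot show that the treated cultures were paired. The same number was the best match only for SQ1 replicates 4, 5 and 6 and for pravastatin replicates 1, 2, 4 and 6. The likeness was thus not particular to the number, and the replicate blocks rest on this pairing. The members and lists were chosen with earlier results of these data known. Named were the 10 genes; per related list and drug, up to 2 called genes per direction with the largest ratio; and the 2 genes nearest to each of the 3 members with the largest absolute ratio with either drug. Alternatives changed the background, normalization, filter, threshold, probe, array weights, slide, scan date and replicate blocks, and left out each array.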

Additional observations from a re-analysis of the deposited data

How the results depend on the processing

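With pravastatin, 9 members were lower under every alternative but median centring, which lost Mat2a (-0.10, adjusted p = 0.367), and slides 1 and 3 alone, where all 10 were lower. With SQ1, the calls of Mat1a and Pemt held under every alternative, with adjusted p up to 0.0162 and 0.0133 where all slides were in the fit, and those of the other 6 called members were each lost under at least 1. Median centring gave 2071 called genes with SQ1 (4860 in the main setting), 2 lower members (5) and 7 related genes (27), and 3697 genes differing between the drugs (7996). With slide as a random block, SQ1 had 2543 called genes, 1 higher member (3), 3 lower members and 12 related genes. With scan date, which did not vary among the SQ1 arrays, as a random block SQ1 had 2239 called genes, 0 higher members and 16 related genes. At an adjusted p of 0.01 it had 3121 genes, 3 lower members and 15 related genes. Leaving out each array in turn gave 3 to 5 lower members with SQ1 (3 without SQ1 replicate 1, 5 or 6), 2 to 3 higher ones, and 4051 to 5104 called genes. For SQ1 minus pravastatin it gave 0 to 1 lower members, Cth being called without pravastatin replicate 1 or 5. Cth was also the 1 member called lower in that difference with the scan date block, the random and the fixed replicate block, and under 2 settings chosen after seeing the data, slide terms in the fit and slides 2 and 4 alone. The replicate block (adjusted p = 0.0178 random, 0.00362 fixed) changed no other call of the members or named related genes. With slide terms, 41 related genes were called with SQ1. On slides 1 and 3 alone, 0 members were higher with SQ1 and Csad was called lower (-0.34, adjusted p = 0.0299). On slides 2 and 4 alone, 3 members were lower with SQ1, Csad was called higher with SQ1 (0.79, adjusted p = 0.00039), and Cth was the 1 member higher with pravastatin (0.50, adjusted p = 0.00579). With slide terms, Csad was also called higher with SQ1 (0.22, adjusted p = 0.0341). Sat1 with SQ1 turned to 0.0071 with median centring, and Icmt with pravastatin, near 0 in the main setting, was 0.088 (adjusted p = 0.0138) with Agilent processed signals and with the deposited series table. Changed calls had nearly the same values under these Agilent and series settings, so the settings are not separate checks. With each probe by itself, counting a member only where all its probes were called, 2 members were higher with SQ1 (Ahcy and Cdo1). The cause of these changes was not tested. Signals of the 10 genes were above background on every array.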
